A study of Mus musculus with 6 samples.

Results

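The nuclear genes for oxidative phosphorylation subunits were followed through GSK-3 inhibition and its removal in cultured mouse astrocytes. They were taken by symbol: every probe whose gene symbol begins with Nduf followed by a, b, c, s or v and a digit, is Sdha, Sdhb, Sdhc or Sdhd, or begins with Uqcr, with Cox4 to Cox8 or with Atp5. The rule found 101 of 41174 probes on the array, which stand for 82 genes: 34 of complex I, 4 of complex II, 8 of complex III, 19 of complex IV and 17 of complex V. Of these, 80 genes were tested, since a probe of theirs stood well above background on the 2 arrays of 1 or more groups. The other two, Cox4i2 and Cox7b2, were not well above background on any array. Ndufa4, named for complex I, was placed with complex IV, where its protein is found. Cox7a2l matches the pattern and is known as a factor that joins complexes III and IV into supercomplexes rather than as a core subunit.

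RNA came from astrocyte cultures of cortex and striatum of wild-type C57BL/6J pups at postnatal day 1, measured on 6 one-colour arrays with 2 for each of 3 groups. Washout cultures had 1 µM Ro3303544, a small-molecule inhibitor of glycogen synthase kinase 3, for 48 h and then 48 h in growth medium without it. Ro cultures had 1 µM Ro3303544 for 48 h. Control cultures had neither. Their title names medium with 10% serum, while the protocol names an equal final concentration of the solvent DMSO. Serum was 10% in all 3 groups. All 3 groups had been treated with 5 µM cytosine arabinoside, which blocks DNA synthesis, for 2 days to deplete microglia, and drug treatment began at day 13 in vitro. Fewer than 1% of cells carried the microglial protein Iba1, per the labels. Washout cultures were thus harvested at day 17 and Ro and control cultures at day 15, and the washout arrays lay on another slide than the Ro and control arrays. Washout, age and slide cannot be told apart. The labels do not say whether the 2 arrays of a group came from separate cultures, so the spread between them may be technical.

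Oxidative phosphorylation is the last stage of respiration in mitochondria. Complex I takes electrons from NADH and complex II from succinate, both pass them to ubiquinone, complex III passes them on to cytochrome c and complex IV to oxygen. Complexes I, III and IV pump protons across the inner membrane, and complex V, the ATP synthase, uses their return to make ATP. Most subunits are encoded in the nucleus, and a few core membrane subunits of complexes I, III, IV and V in mitochondrial DNA, which are not analysed here. Astrocytes are known for high glycolytic flux and also carry a full respiratory chain.

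Between 60.8% and 65.6% of spots per array were well above background, and no spot was saturated. Levels are given as the signal divided by the 75th percentile of that array, called relative signal here. They compare arrays for 1 probe and do not compare genes. A change is the log2 difference between the means of 2 groups, given ± its limma standard error (n = 2 arrays per group), and a gene passed where its Benjamini-Hochberg adjusted p over 20091 features was under 0.05. An exact permutation test of 2 arrays against 2 gives no two-sided p below 0.333, so each call rests on the spread that limma pools over genes. In bulk RNA, fewer cells of a type and less RNA per cell cannot be told apart.

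Markers of the labelled cell type were present: 8 of 8 astrocyte genes were tested, and their summed relative signal was 155 to 165 in washout, 111 to 117 in Ro and 150 to 161 in control cultures. In Ro against control, 2 astrocyte markers passed as higher and 5 as lower, where 19.4% of all features passed as higher and 22.7% as lower. Markers of other cells moved with Ro as well. Of fibroblast and pericyte markers 1 of 7 passed as higher and 5 as lower. Their summed signal was 191 to 195 in washout, 94.2 to 95.3 in Ro and 265 to 298 in control cultures. Most of it was Acta2 alone, with 178 and 174 in washout, 76.2 and 75.5 in Ro, and 243 and 270 in control cultures. A summed signal is weighted to the brightest probes of its list. All 4 tested of 5 ependymal markers were lower, with sums of 38.2 to 41.1, 11.6 to 13.5 and 33.8 to 34.5 in washout, Ro and control cultures. Lower as well were 4 of 4 tested oligodendrocyte precursor markers (15.0 to 15.8, 6.04 to 6.05 and 24.2 to 24.5 in the same order) and 4 of 5 tested neuronal ones (14.4 to 14.9, 8.16 to 8.75 and 14.8 to 15.1), while Snap25 was not well above background. Among 6 tested microglial markers 4 were lower and 1 higher, with sums of 3.48 to 3.67, 2.26 to 2.71 and 3.49 to 3.56, and P2ry12, known from resting microglia, was not well above background on any array. Of 4 tested oligodendrocyte markers 1 was higher and 1 lower (8.32 to 10.05 in washout, 8.47 to 10.2 in Ro and 6.93 to 7.71 in control cultures). Of the endothelial list, Pecam1 was not well above background on any array and Cldn5 and Cdh5 not on both arrays of any group, Tek was not analysed here, and Kdr was tested, at 0.546 to 0.617 in washout, 2.40 to 2.73 in Ro and 0.294 to 0.298 in control cultures, and it rose in Ro. The part of these shifts in the values of the subunit genes was not tested.

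Promoters of respiratory genes are known for sites of NRF1, of GABP (an ETS family factor), of estrogen-related receptors and of YY1. RefSeq promoter sequences of build GRCm38.p6, each 300 bases from 250 before to 50 after the gene's start, were matched for 67 of the 82 genes. Both strands were searched for GCGCA and GCGC with any 1 base between (NRF1), CCGGAAG (ETS family), AAGGTCA (estrogen-related receptor) and AAGATGGCG (YY1). NRF1 letters stood in 16 promoters (23.9%, against 5.19% of the 27025 promoters of the table) and ETS letters in 17 (25.4%, against 9.93%). Estrogen-related receptor letters stood in 8 (11.9%, against 5.38%) and YY1 letters in 7 (10.4%, against 1.64%). At least 1 of these motifs was found in 52.2% of the subunit promoters and in 19.9% of all promoters. It was found in 7 of 16 promoters of genes that passed as higher in Ro (43.8%) and in 28 of 51 of the remaining subunit promoters (54.9%). The promoters of a subunit gene from each of complexes V, II and III that passed in Ro are shown, 5′ to 3′ with the motif letters of either strand in capitals, at chr2:73911277-73911576, chr9:50603800-50604099 and chr4:116075021-116075320, each on the minus strand.
Atp5g3: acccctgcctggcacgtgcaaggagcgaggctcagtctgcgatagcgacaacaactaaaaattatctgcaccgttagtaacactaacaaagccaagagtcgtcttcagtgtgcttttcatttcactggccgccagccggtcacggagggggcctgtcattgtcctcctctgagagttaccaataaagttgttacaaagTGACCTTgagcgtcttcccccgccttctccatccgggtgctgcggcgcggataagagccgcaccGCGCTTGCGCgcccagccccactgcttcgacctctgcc
Sdhd: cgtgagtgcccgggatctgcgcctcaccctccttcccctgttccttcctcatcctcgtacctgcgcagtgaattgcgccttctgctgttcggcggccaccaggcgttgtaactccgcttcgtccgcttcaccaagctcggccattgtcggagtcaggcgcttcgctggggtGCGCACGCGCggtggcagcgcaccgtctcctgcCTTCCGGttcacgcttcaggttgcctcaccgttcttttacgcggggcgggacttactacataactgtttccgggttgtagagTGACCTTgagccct
Uqcrh: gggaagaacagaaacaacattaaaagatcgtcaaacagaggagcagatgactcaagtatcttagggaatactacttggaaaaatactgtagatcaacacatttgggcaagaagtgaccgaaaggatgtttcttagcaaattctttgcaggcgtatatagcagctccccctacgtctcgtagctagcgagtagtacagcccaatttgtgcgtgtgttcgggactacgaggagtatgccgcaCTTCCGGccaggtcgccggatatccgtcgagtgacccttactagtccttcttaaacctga
Atp5g3 holds the NRF1 and estrogen-related receptor letters, Sdhd those of NRF1, the ETS family and the estrogen-related receptor, and Uqcrh those of the ETS family. A match describes the letters and is not a shown binding site.

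In Ro against control cultures, small increases ran through all 5 complexes: 68 of the 80 tested genes had a positive difference and 12 a negative one. The median difference was 0.18 on the log2 scale, a ratio of 1.13, against 0.004 over all features. By the test 20 genes (25.0%) rose and 1 fell, where 19.4% of all features passed as higher and 22.7% as lower. The share of subunit genes that rose was thus near that of all features, so this count by itself is not a result about them. On both Ro arrays 56 of 80 genes (70.0%) lay above both control arrays, against 38.5% of all features, and 5 (6.25%) lay below, against 38.8%. Probes of the subunit genes were bright, with a median at percentile 96.4 to 97.2 of the features of each array. All features are thus mostly dimmer, and the comparison was not matched for brightness. With quantile normalization the median minus that of all features was 0.11, against 0.18 in the main fit. The count of 20 rests on all 4 arrays and dropped when any 1 of them was left out, as did that of all features. In each of these fits a smaller share of subunit genes than of all features passed as higher. Without Ro 1, Ro 2, control 1 or control 2 the median difference was 0.22, 0.15, 0.15 and 0.22. With no filter on dim probes 5 of 82 genes rose, against 2479 of 32589 features. The gene that fell, Cox8c, was not well above background on either Ro array. The sign of the median held in each of these 4 leave-outs.

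After washout the differences mostly went the other way. Against Ro, 75 genes were lower and 5 higher in washout cultures, with a median of −0.26 against −0.02 over all features. Of the 80 genes, 24 (30.0%) fell and 1 rose, where 20.1% of all features passed as lower and 21.4% as higher. Both washout arrays lay below both Ro arrays for 57 genes (71.2%, against 38.2% of all features) and above them for 1 gene, against 36.2% of all features. The 24 were 9 without Ro 1, 5 without Ro 2, 13 without washout 2 and 30 without washout 1. This comparison and the first share the Ro arrays, so a chance deviation of those arrays enters both with opposite signs.

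Washout against control gave a median of −0.07, with 19 genes higher and 61 lower. These differences of means do not use the Ro arrays. The limma calls do, since all 6 arrays set the spread. By limma 1 gene passed as higher (Cox8c) and 1 as lower (Cox7a1), while 4.13% of all features passed as higher and 5.97% as lower. At an unadjusted p under 0.05 limma gave 1 higher and 5 lower, against 5757 of 20091 features in either direction. Both washout arrays lay above both control arrays for 3 genes (3.75%, against 26.8% of all features) and below them for 22 (27.5%, against 29.4%). Washout 1 and 2 differed from each other: the median of the 80 genes against the control mean was 0.016 on washout 1 and −0.18 on washout 2. The Ro arrays had 0.15 and 0.22 and the control arrays −0.04 and 0.04. Thus both Ro arrays lay above the control arrays, washout 1 lay between them, and washout 2 lay below them. The median against control turned from −0.18 without washout 1 to 0.016 without washout 2.

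**Figure D1:**
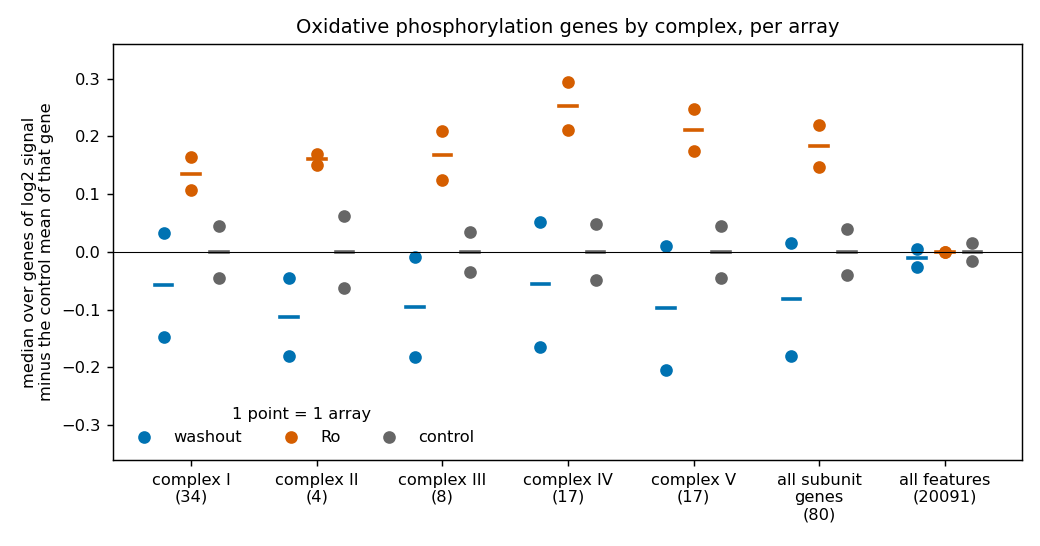
Median over the genes of each complex of the log2 signal minus that gene's control mean, 1 point per array and a bar at the group mean, for washout, Ro and control, with the number of genes in brackets. Both Ro arrays lie above the control arrays in every complex, up to 0.29 in complex IV, and the medians over all features lie near 0.

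Across the complexes the median difference in Ro was 0.14 in complex I, 0.16 in complex II, 0.17 in complex III, 0.27 in complex IV and 0.23 in complex V. In washout against Ro the medians were −0.21, −0.20, −0.27, −0.39 and −0.28 in the same order, and in washout against control −0.06, −0.11, −0.10, −0.03 and −0.08. Complex IV includes 5 tissue isoforms. Without them its medians were 0.27, −0.32 and −0.02 in the order of the comparisons above. Whether the complexes differ from each other was not tested. Both Ro arrays lay above both control arrays for 38.5% of all features; in complex V they did so for 15 of 17 genes (88.2%), in complex IV for 13 of 17 (76.5%), in complex III for 6 of 8, in complex I for 20 of 34 (58.8%) and in complex II for 2 of 4 (50.0%).

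**Figure D2:**
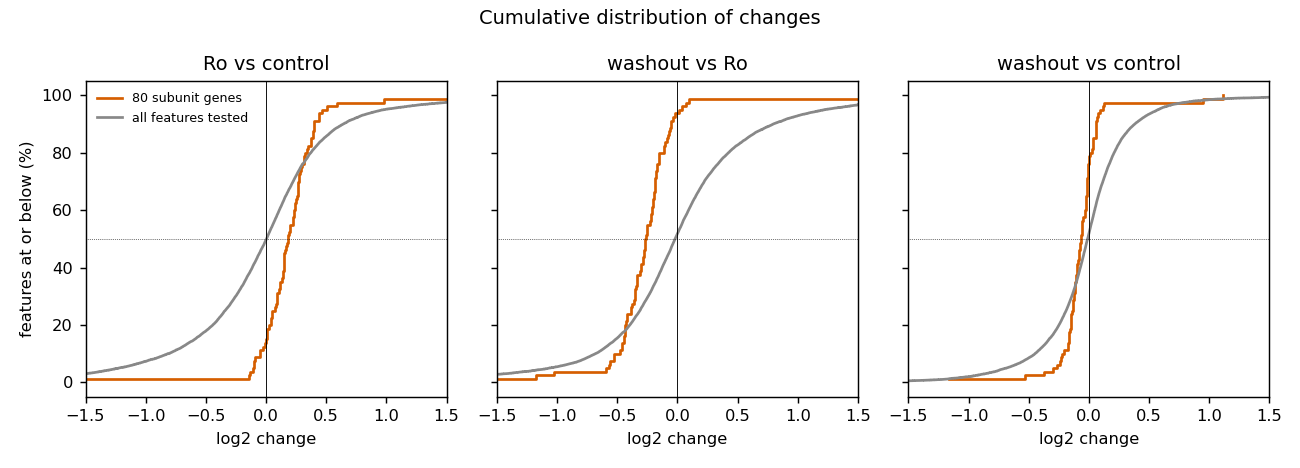
Cumulative share (%) of the log2 changes of the 80 tested subunit genes and of all 20091 features, for Ro against control, washout against Ro and washout against control. The subunit curve crosses 50% at 0.18, −0.26 and −0.07, and the curve of all features crosses near 0.

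In complex I, 8 of 34 genes rose in Ro (23.5%, near the 19.4% of all features). The N module, which oxidises NADH, had 1 of 8, the Q module, which reduces ubiquinone, had 2 of 5, and the membrane arm and other accessory subunits had 5 of 21. Median differences were 0.07, 0.27 and 0.11. Ndufv2, which carries an iron-sulphur cluster beside the NADH site, had relative signals of 9.10 and 9.27 in washout, 11.8 and 12.3 in Ro, and 9.87 and 8.53 in control cultures. It rose by 0.39 ± 0.09 in Ro (adjusted p = 0.026), and was lower by the same amount in washout than in Ro (−0.39 ± 0.09, adjusted p = 0.026). Its partner Ndufv1, which binds NADH and the flavin, had 24.7 and 22.1 in washout, 24.3 and 26.3 in Ro, and 24.7 and 26.2 in control cultures. These groups overlapped, with a difference of −0.01 ± 0.09 in Ro against control (adjusted p = 0.94). Ndufs1, the largest subunit and a carrier of iron-sulphur clusters, had 21.9 and 19.4 in washout, 22.6 and 23.1 in Ro and 19.9 and 21.8 in control cultures, a difference of 0.13 ± 0.09 in Ro that did not pass. Of the N module's 8 genes, Ndufv2 fell in washout against Ro, Ndufv3 differed by 0.09 ± 0.09, and the rest had negative differences that did not pass.

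In the Q module, Ndufs8, an iron-sulphur subunit, had 2.61 and 2.48 in washout, 2.93 and 2.95 in Ro, and 2.37 and 2.52 in control cultures. Both Ro arrays were above all others, and the gene rose by 0.27 ± 0.07 (adjusted p = 0.037). Ndufs3 had 16.4 and 17.2 in washout, 22.03 and 22.8 in Ro, and 17.5 and 19.8 in control cultures. It was higher in Ro by 0.27 ± 0.09 without passing (adjusted p = 0.066), and fell in washout against Ro by 0.42 (SE 0.09, adjusted p = 0.018). Ndufs7, which holds the last iron-sulphur cluster before ubiquinone, differed by 0.17 ± 0.10 in Ro and by −0.27 ± 0.10 in washout against Ro, and passed in neither.

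Among the accessory subunits, Ndufb4 rose most in Ro, with 32.2 and 27.4 in washout, 38.4 and 41.5 in Ro, and 28.6 and 31.9 in control cultures (0.40 ± 0.11, adjusted p = 0.042). Ndufb5 (0.39 ± 0.11), Ndufa10 (0.32 ± 0.07), Ndufb11 (0.27 ± 0.08) and Ndufa8 (0.26 ± 0.08) rose as well. In washout against Ro, 8 of 34 genes of complex I fell (23.5%, near the 20.1% of all features). They were Ndufb2, Ndufb4, Ndufb6, Ndufs3, Ndufv2, Ndufb9, Ndufa8 and Ndufa10. Ndufb2, the one with the greatest change, had 24.6 and 24.7 in washout, 34.1 and 37.1 in Ro, and 29.2 and 31.3 in control cultures. It fell by 0.53 (SE 0.08, adjusted p = 0.0060) and had values on both washout arrays under those of control, a difference of −0.30 ± 0.08 that did not pass (adjusted p = 0.088). Ndufb6 had 18.5 and 17.4 in washout, 23.8 and 24.6 in Ro, and 21.0 and 21.1 in control cultures, and was lower in washout than in Ro by the test (−0.43 ± 0.07, adjusted p = 0.0079). In Ro against control 8 genes, among them Ndufa2 at −0.13 and Ndufs5 at −0.10, had negative differences that did not pass.

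No call of complex I in Ro outlasted the leaving out of each array. Without Ro 1, Ro 2 or control 2 all 8 missed the threshold, and without control 1 the calls of 2 passed, Ndufv2 among them (adjusted p = 0.026); the adjusted p over these fits ran from 0.026 to 0.230, and the differences stayed positive, between 0.21 and 0.50. In washout against Ro, Ndufb2 passed in all 4 leave-outs, with adjusted p up to 0.046. Ndufv2, Ndufa8, Ndufa10 and Ndufb9 passed in none of them (0.052 to 0.226), Ndufb6 missed without Ro 1 or Ro 2 (up to 0.062), Ndufb4 passed without washout 1 only (0.031) and Ndufs3 without washout 2 only (0.043).

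**Figure D3:**
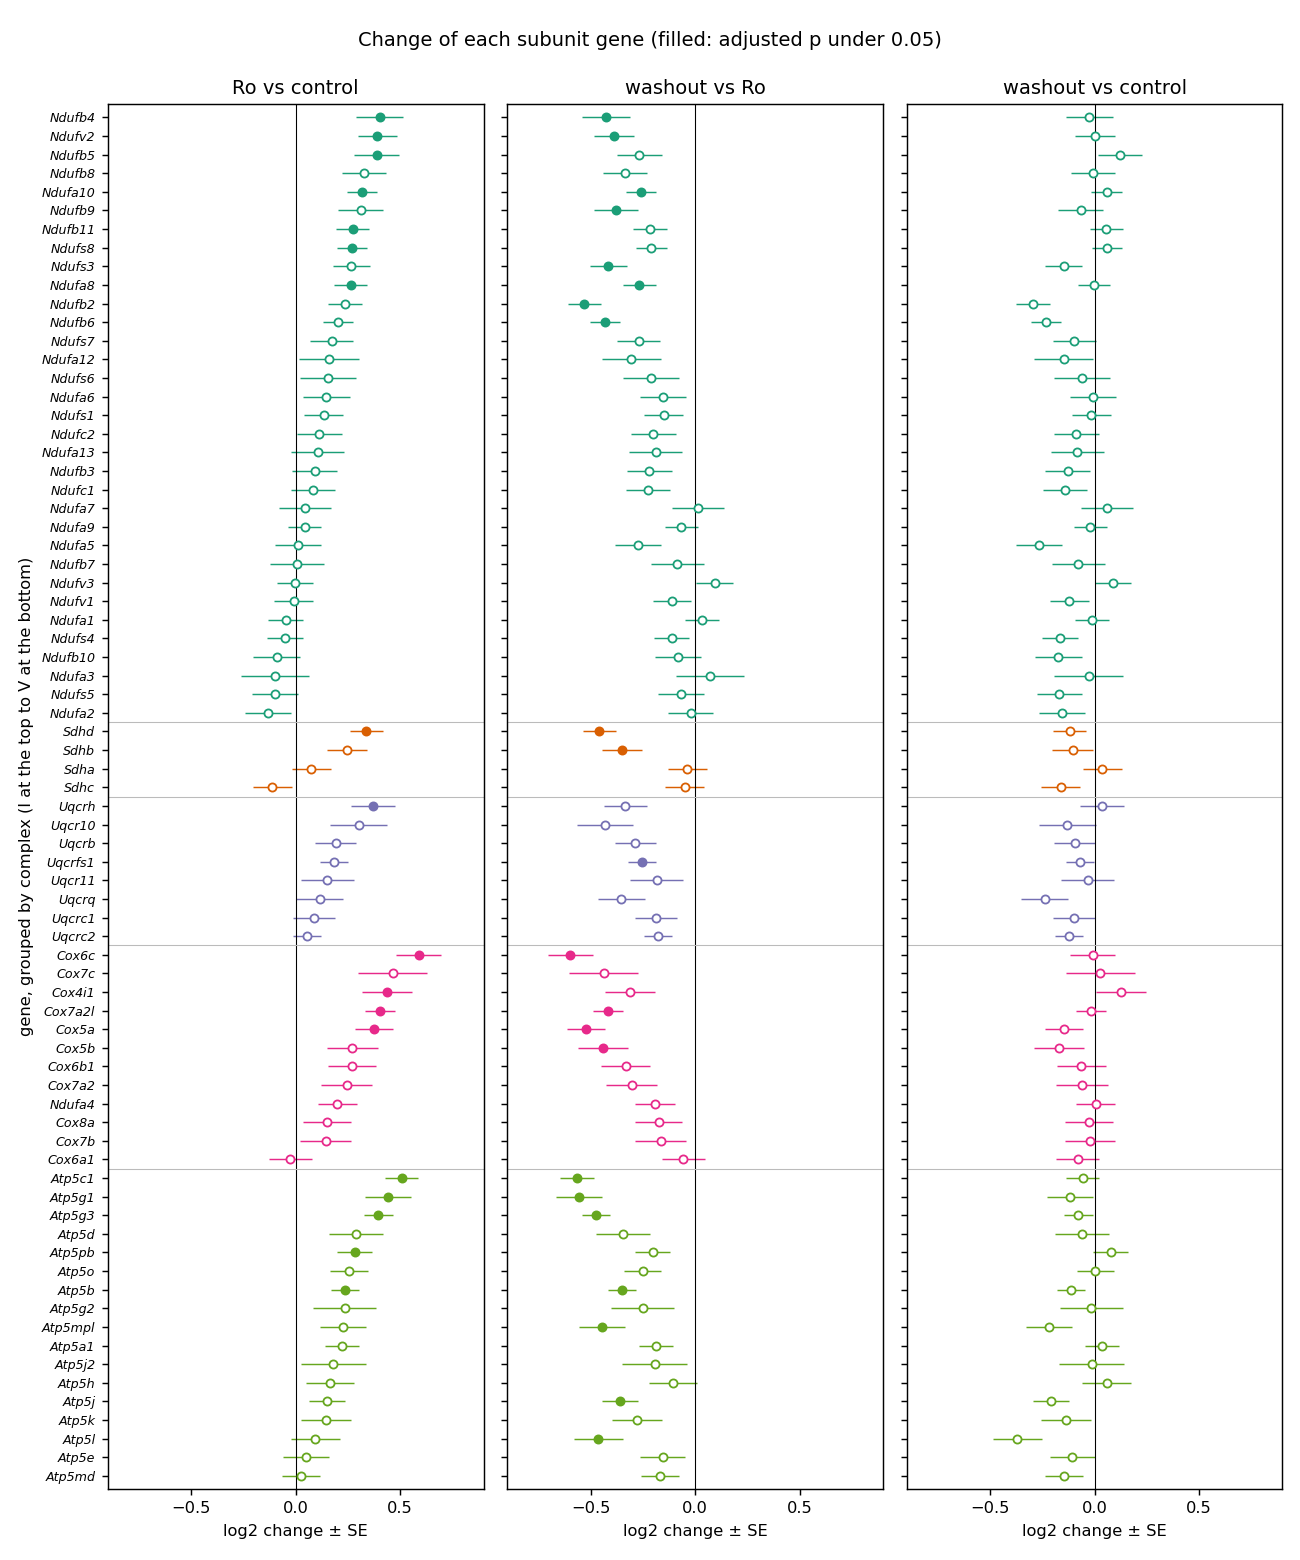
Log2 change ± SE (limma, 2 arrays per group) of 74 subunit genes other than the tissue isoforms, 1 row per gene grouped by complex, for the 3 comparisons; filled points have an adjusted p under 0.05. In Ro against control 18 points are filled, all to the right of 0, in washout against Ro 22, all to the left, and in washout against control the points lie between −0.37 and 0.13 and are open.

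Complex II, succinate dehydrogenase, is also an enzyme of the tricarboxylic acid cycle and has 4 nuclear genes. Its membrane anchor Sdhd had 17.0 and 15.6 in washout, 21.8 and 23.1 in Ro, and 17.9 and 17.5 in control cultures. Both Ro arrays were above all others; the gene rose by 0.34 ± 0.08 in Ro (adjusted p = 0.025) and fell by 0.46 (SE 0.08, adjusted p = 0.0094) in washout against Ro. The iron-sulphur subunit Sdhb had 14.4 and 13.1 in washout, 17.2 and 17.9 in Ro, and 15.7 and 13.9 in control cultures. It differed by 0.25 ± 0.10 in Ro without passing (adjusted p = 0.099) and fell by 0.35 (SE 0.10, adjusted p = 0.038) after washout. Sdha, the flavin subunit that oxidises succinate, had 5.86 and 6.28 in washout, 6.27 and 6.19 in Ro, and 6.33 and 5.52 in control cultures, and these groups overlapped. The other anchor, Sdhc, had 11.5 and 10.3 in washout, 10.7 and 11.8 in Ro, and 12.5 and 11.8 in control cultures, a difference of −0.11 ± 0.09 in Ro that did not pass. The call of Sdhd in Ro was lost in each of the 4 leave-outs (adjusted p 0.077 to 0.137), and that after washout without Ro 2 (0.068). Sdhb was lost without Ro 1, Ro 2 or washout 2, with adjusted p up to 0.166.

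In complex III all 8 differences were positive in Ro and all 8 negative in washout against Ro. Each comparison had 1 call (12.5%), below the shares of all features, 19.4% higher in Ro and 20.1% lower after washout. Uqcrh, the hinge subunit at the cytochrome c site, had 134 and 114 in washout, 149.98 and 162 in Ro, and 121 and 120.5 in control cultures. It rose by 0.37 ± 0.10 in Ro (adjusted p = 0.040), and in washout against Ro it differed by −0.34 ± 0.10 (adjusted p = 0.053). Uqcrfs1, the Rieske iron-sulphur protein, had 20.1 and 19.7 in washout, 23.4 and 24.1 in Ro, and 21.0 and 20.8 in control cultures. Its Ro arrays did not overlap with control (0.18 ± 0.07, adjusted p = 0.080), and it fell by 0.25 (SE 0.07, adjusted p = 0.033) after washout. The core proteins Uqcrc1 and Uqcrc2 differed by 0.09 ± 0.10 and 0.05 ± 0.07 in Ro and passed in no comparison. Uqcr10 had 68.1 and 53.7 in washout, 77.7 and 85.8 in Ro, and 64.1 and 68.4 in control cultures, with differences of 0.30 ± 0.14 in Ro and −0.43 ± 0.14 after washout that did not pass. The washout 1 spots of Uqcrfs1 and of the Uqcrc1 probe used lie where dim neighbouring spots were raised on that array. Each call of complex III was lost in all 4 leave-outs, with adjusted p of 0.104 to 0.178 for Uqcrh and of 0.072 to 0.183 for Uqcrfs1.

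Complex IV, cytochrome c oxidase, had 12 tested genes outside the tissue isoforms. In Ro 4 of them rose (33.3%, against 19.4% of all features). In washout against Ro 4 fell (33.3%, against 20.1%). Cox6c, a small membrane subunit, rose most of the broadly expressed subunits, with 74.1 and 66.5 in washout, 103 and 109 in Ro, and 65.5 and 76.2 in control cultures. The rise was 0.59 ± 0.11 (adjusted p = 0.011), a ratio of 1.50, and washout against Ro gave −0.60 ± 0.11 (adjusted p = 0.011). Cox4i1, the broadly expressed form of subunit 4, had 125 and 107 in washout, 138 and 148 in Ro, and 98.5 and 113 in control cultures. It rose by 0.44 ± 0.12 in Ro (adjusted p = 0.036) and differed by −0.31 ± 0.12 after washout (adjusted p = 0.090). Cox5a, which binds near Cox4i1, had 65.6 and 58.7 in washout, 87.3 and 91.1 in Ro, and 66.2 and 71.5 in control cultures. Its rise was 0.38 ± 0.09 (adjusted p = 0.026) and its fall after washout 0.52 (−0.52 ± 0.09, adjusted p = 0.0092). Cox5b, a zinc-binding subunit, differed by 0.27 ± 0.12 in Ro without passing (adjusted p = 0.13) and fell by 0.44 (SE 0.12, adjusted p = 0.037) after washout.

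The supercomplex factor Cox7a2l had 8.32 and 8.15 in washout, 10.6 and 11.4 in Ro, and 8.28 and 8.37 in control cultures, and its values in washout were close to those in control. It rose by 0.40 ± 0.07 in Ro (adjusted p = 0.010) and fell by 0.42 (SE 0.07, adjusted p = 0.0091) after washout. Cox7a2, its broadly expressed relative, differed by 0.24 ± 0.12 in Ro without passing. Cox6a1 was the 1 of these 12 genes with a negative difference in Ro (−0.03 ± 0.10), with 304 and 275 in washout, 290.3 and 312 in Ro, and 287 and 327 in control cultures. Cox8a (0.15 ± 0.11), Cox6b1 (0.27 ± 0.12) and Ndufa4 (0.20 ± 0.09) did not pass. In the leave-outs of Ro against control, Cox4i1 and Cox5a were lost each time (adjusted p 0.053 to 0.154), Cox6c without Ro 1 or Ro 2 (up to 0.067) and Cox7a2l without Ro 2 (0.077). After washout Cox6c, Cox5a and Cox7a2l were lost without Ro 2 (0.061 to 0.071), and Cox5b passed only without washout 1 (up to 0.163 in the others).

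Complex V had positive differences in Ro for all 17 genes and negative ones in washout against Ro for all 17. In Ro 5 rose (29.4%, against 19.4% of all features). After washout 7 fell (41.2%, against 20.1%). In the catalytic F1 part, the central shaft subunit Atp5c1 had 89.9 and 82.2 in washout, 124 and 131 in Ro, and 89.0 and 89.9 in control cultures. Ro stood clear of both other groups: the gene rose by 0.51 ± 0.08 (adjusted p = 0.0069), a ratio of 1.42, and fell by 0.57 (SE 0.08, adjusted p = 0.0048) after washout. The catalytic subunit Atp5b had 113 and 112 in washout, 142 and 144 in Ro, and 119 and 124 in control cultures. It rose by 0.24 ± 0.07 (adjusted p = 0.041) and fell by 0.35 (SE 0.07, adjusted p = 0.013). Atp5a1, its non-catalytic partner in the hexamer, had 68.3 and 63.6 in washout, 74.0 and 76.1 in Ro, and 67.2 and 61.6 in control cultures, a difference of 0.22 ± 0.08 that did not pass (adjusted p = 0.086). Atp5d differed by 0.29 ± 0.13 and Atp5e by 0.05 ± 0.11 in Ro; neither passed.

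Atp5g1, Atp5g2 and Atp5g3 encode the same mature c subunit, the proton-carrying ring of the membrane part, and differ in their import sequence. Atp5g1 had 20.7 and 17.3 in washout, 27.5 and 28.2 in Ro, and 19.8 and 21.3 in control cultures. Atp5g3 had 98.3 and 101 in washout, 137 and 139.997 in Ro, and 103 and 108 in control cultures. Atp5g2 had 56.2 and 43.0 in washout, 56.0 and 61.1 in Ro, and 47.1 and 52.5 in control cultures. Atp5g1 (0.44 ± 0.11, adjusted p = 0.030) and Atp5g3 (0.40 ± 0.07, adjusted p = 0.0097) rose in Ro and fell after washout (−0.56 ± 0.11 and −0.48 ± 0.07), and their Ro arrays did not overlap with the other groups. Atp5g2 differed by 0.23 ± 0.15 in Ro (adjusted p = 0.27), and its groups overlapped between washout and Ro. Whether the 3 genes differ from each other was not tested. Atp5pb, the stator subunit, rose by 0.28 ± 0.08 (adjusted p = 0.047). Atp5l, Atp5mpl and Atp5j fell after washout by 0.46, 0.45 and 0.36, and in Ro they differed by 0.09, 0.23 and 0.15 without passing. The washout 2 spot of Atp5l lies where dim neighbouring spots were raised on that array. In the leave-outs Atp5b, Atp5g1 and Atp5pb lost their call in Ro each time (adjusted p 0.073 to 0.188), Atp5g3 without Ro 1 or Ro 2 (up to 0.070) and Atp5c1 without Ro 2 (0.053). After washout Atp5c1 and Atp5g3 passed in all 4, Atp5b and Atp5g1 were lost without Ro 1 or Ro 2 (up to 0.088), and Atp5l, Atp5mpl and Atp5j passed only without washout 1 (up to 0.134 in the others).

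Several complex IV subunits have isoforms restricted to some tissues. Cox7a1, the heart and skeletal muscle form of subunit 7a, had 4.86 and 4.41 in washout, 9.93 and 11.0 in Ro, and 10.13 and 10.6 in control cultures. Both washout arrays were under all others, and Ro and control overlapped. It fell by 1.17 (SE 0.09, adjusted p = 0.00079) in washout against Ro and by 1.16 (SE 0.09, adjusted p = 0.0078) in washout against control, and differed by 0.01 ± 0.09 between Ro and control. Without control 2 the fall against control missed the threshold (adjusted p = 0.057), while the fall against Ro passed in all 4 leave-outs (up to 0.0076). Fibroblast and pericyte markers moved as well. In washout against control 6 of 7 fell (85.7%, against 5.97% of all features), with a median of −0.77, among them Lum by 1.53 and Dcn by 1.24. In washout against Ro 3 passed as higher, among them Acta2 at 1.22, and 3 as lower, among them Lum at −1.86. In Ro against control, where Cox7a1 differed by 0.01, 1 passed as higher and 5 as lower. Their summed levels, mostly Acta2, are those given above. The part of these markers in the Cox7a1 values was not tested.

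Cox6a2, the heart and skeletal muscle form of subunit 6a, was dim, with processed intensities of 37.5 and 39.7 in washout, 68.8 and 95.3 in Ro, and 39.0 and 32.6 in control cultures. Its relative signals were 0.0493 and 0.0508, 0.0853 and 0.122, and 0.0520 and 0.0516 in that order, well above background on all arrays. Both Ro arrays were above the others; the gene rose by 0.98 ± 0.18 in Ro (adjusted p = 0.010) and fell by 1.03 (SE 0.18, adjusted p = 0.0087) after washout. The rise in Ro was lost without control 1 or control 2 (up to 0.051), and the fall was kept in all 4 leave-outs. Its broad partner Cox6a1 differed by −0.03 ± 0.10 in Ro.

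Cox8c, a form of subunit 8 known from testis, was lower in Ro than in control and higher in washout than in Ro, where most subunit genes had the opposite signs. Its processed intensities were 69.1 and 56.1 in washout, 9.62 and 9.22 in Ro, and 25.3 and 26.0 in control cultures, and in Ro it was not well above background on either array, so it entered the test through the washout and control groups. Its level in Ro was therefore at least 1.46-fold lower than in control cultures, and in washout it was at least 3.17-fold higher than in Ro. Both are given as a description only, since the test there set bright arrays against readings not well above background. These bounds set the brighter group against the lowest signal called above background on each dim array. In washout against control it rose by 1.12 ± 0.15 (adjusted p = 0.020), a call lost without control 1, control 2 or washout 1 (up to 0.078).

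Cox8b, the muscle and brown fat form of subunit 8, had intensities of 101 and 5.97 in washout, 79.7 and 93.4 in Ro, and 13.4 and 9.64 in control cultures. It was well above background on both Ro arrays, on washout 1 and on neither control array, so it entered the test through the Ro group, and its Ro values are given as a description only. In the fit of all 6 arrays it passed in no comparison, and the washout arrays lay far apart. Their spread enters the SE of every comparison, so the missing call in Ro against control is not read as no change. The washout 1 spot lies where dim neighbouring spots were raised by 3.86 on the log2 scale; washout against Ro gave −1.77 ± 1.296, −3.83 without washout 1 and 0.29 without washout 2. Cox6b2, a testis form of subunit 6b, had 7.45 and 5.86 in washout, 8.23 and 9.06 in Ro, and 9.31 and 9.74 in control cultures, and passed in no comparison (washout against control −0.53 ± 0.13, adjusted p = 0.077). Cox4i2, the lung form of subunit 4, and Cox7b2 had intensities of 3.38 to 13.1 over all arrays, none of them well above background.

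**Figure D4:**
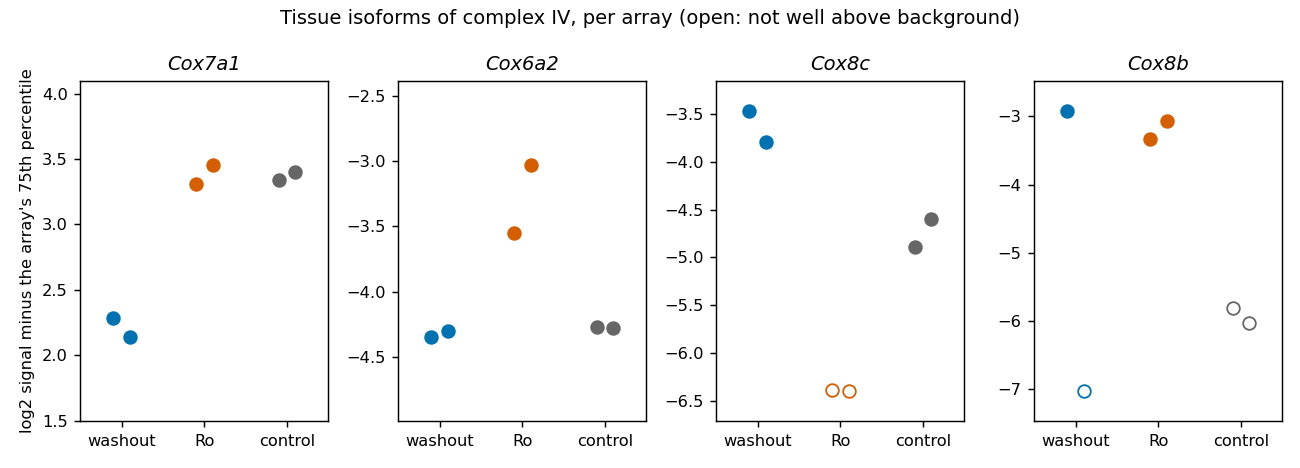
Log2 signal minus the array's 75th percentile of Cox7a1, Cox6a2, Cox8c and Cox8b on each of the 2 washout, 2 Ro and 2 control arrays; open points are not well above background. Cox7a1 is low on both washout arrays, Cox6a2 high on both Ro arrays and Cox8c low on both, and the washout points of Cox8b lie far apart.

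For 15 subunit genes more than 1 probe was kept, which allows a check within the array. In Ro against control the probes differed in sign for 1 gene, Ndufv3 (−0.19 to 0.01), with a median spread of 0.07 between the probes of a gene. The widest spread was that of the 3 Atp5b probes, 0.24 to 0.57, all higher in Ro. In washout against Ro 2 genes differed in sign (Ndufv3 and Ndufa7), and in washout against control 7 did, where the changes themselves were small. Bright spots were read from a scan at lower detector gain, and 45 to 53 of the 101 subunit probes per array came from that scan. The median difference in Ro was 0.17 for the 39 genes read at low gain on all arrays, 0.19 for the 31 read at high gain on all and 0.18 for the 10 mixed ones.

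Genes around the respiratory chain gave mixed values. The mobile carrier cytochrome c (Cycs) had 22.2 and 20.2 in washout, 33.9 and 34.0 in Ro, and 24.9 and 26.8 in control cultures, and rose by 0.39 ± 0.08 in Ro (adjusted p = 0.018) and fell by 0.68 (SE 0.08, adjusted p = 0.0031) after washout. Cyc1, the complex III subunit that hands electrons to it, rose by 0.39 ± 0.10 (adjusted p = 0.032) and was lower by the test after washout (−0.37 ± 0.10, adjusted p = 0.037). The complex I subunit Ndufab1 and the ATP synthase inhibitor Atpif1 differed by 0.26 ± 0.11 and −0.23 ± 0.10 in Ro and did not pass.

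Assembly factors, which build the complexes without being part of them, had calls in both directions in Ro, with shares below those of all features: of 38 tested of 43 listed, 6 rose (15.8%, against 19.4%) and 7 fell (18.4%, against 22.7%), with a median of 0.09. Coa6, a copper-handling factor for complex IV, fell by 0.85 (SE 0.09, adjusted p = 0.0022), with 6.35 and 5.66 in washout, 3.22 and 3.50 in Ro, and 5.93 and 6.16 in control cultures. Its change in washout against Ro was 0.84 ± 0.09 (adjusted p = 0.0023). Sco1 (0.41 ± 0.07) and Cox11 (0.40 ± 0.07), also copper factors of complex IV, rose, and Tmem126b, a factor for complex I, fell (−0.41 ± 0.08). In washout against Ro 3 of the 38 rose (7.89%, against 21.4%) and 9 fell (23.7%, against 20.1%).

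Of 17 genes of the tricarboxylic acid cycle and pyruvate dehydrogenase, which feed the chain with NADH and succinate, 3 rose in Ro (17.6%, against 19.4% of all features): Pdha1 (0.63 ± 0.07), Idh3b (0.35 ± 0.09) and Mdh2 (0.28 ± 0.08). The median was 0.14, and 7 of the 17 fell in washout against Ro (41.2%, against 20.1% of all features). Pdha1, a subunit of the enzyme that turns pyruvate into acetyl-CoA, had 4.54 and 4.55 in washout, 6.84 and 7.13 in Ro, and 4.58 and 4.43 in control cultures. In washout against control Idh2 rose (0.46 ± 0.10, adjusted p = 0.048).

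Among 12 nuclear regulators of mitochondrial genes, 3 rose in Ro (25.0%, against 19.4% of all features): Gabpb1 (0.43 ± 0.07), Esrra (0.39 ± 0.07) and the mitochondrial RNA polymerase Polrmt (0.31 ± 0.08). Esrra, the estrogen-related receptor alpha, had 4.75 and 4.90 in washout, 6.69 and 6.84 in Ro, and 4.97 and 5.34 in control cultures, and fell by 0.49 (SE 0.07, adjusted p = 0.0061) after washout. The coactivator Ppargc1b had 0.0741 and 0.0930 in washout, 0.168 and 0.159 in Ro, and 0.158 and 0.166 in control cultures. It fell in washout, by 0.98 (SE 0.13, adjusted p = 0.0036) against Ro and by 0.97 (SE 0.13, adjusted p = 0.018) against control. Its relative Ppargc1a had 3.40 and 6.10 in washout, 6.99 and 7.46 in Ro, and 6.83 and 6.78 in control cultures, with washout arrays far apart and no call (washout against Ro −0.66 ± 0.27, adjusted p = 0.11). Nrf1 (0.23 ± 0.08), Gabpa (−0.24 ± 0.08), Tfam (0.07 ± 0.10) and Yy1 (−0.07 ± 0.07) did not pass in Ro.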

How the data were processed

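The deposited array files hold intensity values per spot on a linear scale. The RNA was labelled with Cy3, per the labels, and scans were read with Agilent Feature Extraction, version 10.1 per the submitters' processing notes and 10.5.1.1 per the file headers, which subtracted background within each array and did not scale between arrays. A second deposited table gives, for each probe and sample, the authors' linear ratio, whose centring is not given in the sources used here; it served as an alternative only. Of 41174 probes that are not controls, 106 with flagged spots were left out. Each array was scaled to its 75th percentile of processed intensity and put on the log2 scale. A filter kept the 26473 probes that Feature Extraction called well above background on the 2 arrays of any group, and the probe with the highest mean stood for a gene, which gave 20091 features. Probes were named through their accession and a RefSeq table, for 61.0% of them. No mitochondrially encoded subunit was analysed here.

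All 6 arrays entered a single limma fit (version 3.58.1, R 4.3.3) with a mean for each group. Its moderated tests were two-sided, on 2.09 prior and 3 residual degrees of freedom, with Benjamini-Hochberg adjustment. The procedure was tested on simulated data. Python 3.11.15 with matplotlib 3.10.9 drew the figures. The subunit genes, gene lists and tests were chosen with earlier results of these data known. Genes named were the catalytic or core subunits, isoform families, up to 3 genes per complex and comparison with the largest change past the threshold, genes that passed against the main direction, genes whose probes disagreed, and up to 4 of each other list; Ndufa8, Ndufa10, Ndufb9, Ndufb11, Ndufs5, Ndufa2, Uqcr10, Atp5pb, Atp5j, Atp5l, Atp5mpl and some genes of the other lists were named after their values were seen. The values of 1 subunit gene, which the counts and medians include, are not reported here. Lists were described by counts and medians, with no test of a list. Replicate numbers were checked for pairing, a check added after seeing the data. Over all features, deviations of same-numbered arrays from their group means correlated at -0.119 for control and Ro, 0.078 for control and washout and -0.111 for Ro and washout. Over the 80 subunit genes the values were -0.04, 0.23 and -0.31 in the same order. The numbers were not taken as pairs. Alternatives changed the background correction, scaling, source of values, filter, choice of probe, variance model, arrays in the fit and block, and left out each array in turn.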

Additional observations from a re-analysis of the deposited data

How the results depend on the processing

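Over 17 alternatives the median log2 change of the subunit genes lay between 0.13 and 0.23 in Ro against control and between −0.37 and −0.16 in washout against Ro, with the sign kept in all 17. In washout against control it lay between −0.18 and 0.016, turning sign only without washout 2. In the main fit 20 genes were higher in Ro, and 3897 of all features. With a trended and robust variance the count was 30 (4457 of all features), and with the replicate number as a block 6 (3056). With no filter on dim probes it was 5 of 82 genes (2479 of 32589 features). It ran from 18 (quantile normalization, 4219 features) to 24 (median centring, 4215 features) with the other scalings, filters, probe choices and sources of values and with only the groups compared. Leaving out an array lowered it each time. The count of 1 lower was 2 with quantile normalization (4577 of all features). It was 0 with probes well above background on all arrays (4379 of 17796 features), a filter that drops Cox8c. At an unadjusted p under 0.05 limma then gave 30 higher and 0 lower, against 9662 features in either direction. In the main fit 24 genes were lower in washout than in Ro, and 4039 of all features. They were 44 with median centring (5048 of all features), 49 with the authors' deposited values (5143) and 42 with a trended and robust variance (4563). With the replicate block they were 13 (3271), and with no filter 12 of 82 genes (2666 of 32589 features). With an array left out the count moved both ways. Median centring and the authors' values shift all features by −0.11 and −0.12 in that comparison, and relative to that shift the subunit median was −0.24 in both; with the authors' values it was −0.37 before the shift was taken off, and it ran from −0.36 to −0.16 with an array left out. The 1 higher there was 0 with probes above background on all arrays (0 at an unadjusted p under 0.05 by limma), where 4217 of 17796 features passed as higher. In washout against control the 1 higher (Cox8c) was 0 with no filter, the strict filter, only the groups compared and the replicate block. There 62, 959, 316 and 298 of all features passed as higher. At an unadjusted p under 0.05 limma gave 2, 0, 1 and 1 genes higher, against 10466, 5315, 4854 and 4977 features in either direction. With an array left out the count moved both ways. The 1 lower (Cox7a1) was 2 with the authors' values (1399 of all features) and 4 with the trended variance (1525). With an array left out this count did not rise, and the median ran from −0.18 to 0.016. The causes of these changes in the counts were not tested. Exchanging the Ro numbers in the block, chosen after seeing the data, gave 14 higher and 1 lower in Ro against control (3895 and 4517 of all features). It gave 1 and 23 in washout against Ro (4289 and 4003), and 1 and 1 in washout against control (732 and 926). Of the 18 named genes called in Ro against control, 208 of 305 values under the alternatives kept the call and 97 lost it, and for the 20 called in washout against Ro 274 of 339 kept it and 65 lost it, none with a turned sign. The number of arrays limits precision: with 2 per group most changes under 0.25 on the log2 scale did not pass.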
